A study of Rattus norvegicus with 4 samples.

Results

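Cardiac muscle builds its thick filaments from a pair of myosin heavy chains, the alpha chain encoded by Myh6 and the beta chain encoded by Myh7. They were followed here on 4 arrays of neonatal rat ventricular myocytes, the beating muscle cells of newborn rat hearts, grown in dishes. All probe sets whose only gene symbol in the platform annotation was Myh6 or Myh7 were taken, dim ones included. This gave 2 probe sets for Myh7 and 2 for Myh6, 4 of the 15866 probe sets that measure genes, for 2 of the 10411 genes named by a single symbol. A probe set is a group of short array probes meant to read 1 transcript. The fibronectin group had 2 arrays of myocytes from dishes coated with fibronectin, an adhesive matrix glycoprotein, and the control group had 2 arrays of myocytes from dishes without a coat. In both groups the cells had spent 24 h in medium containing 10% serum and a further 48 h without serum. The labels give neither the number of hearts used nor whether arrays stand for separate cultures. The p-values therefore measure spread among these 4 samples alone, and that spread may be technical. The series title names hypertrophy, the enlargement of heart cells.

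Myosin heavy chains carry the motor domain that splits ATP and pulls on actin, and a long tail through which they pack into the filament. The alpha chain is the fast motor and dominates the adult rodent ventricle. The beta chain is the slow motor and dominates the rodent ventricle before birth. After birth thyroid hormone raises transcription of Myh6 and lowers that of Myh7 in rodents, and a return towards the beta chain is a widely used sign of pathological hypertrophy in rodent hearts. For this reason the balance of beta to alpha transcript is of interest in a culture model of hypertrophy.

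The 2 genes are neighbours in the rat gene table, with 0 annotated genes between them. Each span also holds a microRNA gene on the minus strand, Mir208a inside Myh6 and Mir208b inside Myh7. Their mature forms are shown because they display how alike the 2 loci are. RefSeq gives them on build GRCr8, 5′ to 3′, with the seed (bases 2 to 8) in capitals. The first lies at chr15:32395568-32395585 and the second at chr15:32421648-32421665.
rno-miR-208a-3p: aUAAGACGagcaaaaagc
rno-miR-208b-3p: aUAAGACGaacaaaaggu
All 7 seed bases are the same, as are 15 of the 18 positions. These microRNAs were not analysed here. The sequences of the array probes were not used here either, so the place of each probe set along its transcript is unknown.

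The arrays themselves did not group by coating. Fibronectin replicate 2 stood apart, with log2 signals that correlated at 0.775 to 0.794 with the other arrays, while the remaining pairs of arrays lay between 0.847 and 0.910. These correlations run across 9519 probe sets, which are not independent replicates. Signal was quantile normalized, values below a floor of 4.55 on the log2 scale were set to it, and levels below are normalized log2 signals unless another scale is named. On control transcripts measured at both ends, the 3′ to 5′ signal ratio of Gapdh was 6.02 and 3.52 on fibronectin replicates 1 and 2, against 1.64 and 1.15 on control replicates 1 and 2. For beta-actin it was 13.0 and 6.29 on the fibronectin arrays, against 1.46 and 1.40 on the controls. For hexokinase it was 3.11 and 7 on the fibronectin arrays, against 3.77 and 4.12 on the controls.

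The cultures carried the markers of ventricular muscle on every array. Of 12 listed markers 11 were on the array and all 11 passed the filter on dim probe sets. Their summed normalized signal was 72405 and 76495 on the fibronectin arrays, against 73915 and 66690 on the controls, so the groups overlapped. Of the 8 skeletal muscle markers, the master regulator Myod1 was at the floor on all 4 arrays. Tnni2, the fast troponin I, passed the filter, and so did all 5 probe sets named Myh1, which measured 8.16 to 12.09. Whether these bright probe sets read Myh1 was not tested, and the annotation may be old. The atrial list summed to 14991 and 11403 on the fibronectin arrays, against 8772 and 4739 on the controls, which includes Nppa, while its median difference was -0.061 and 4 of its 6 genes were negative. Smooth muscle markers (6 of 6 tested, median difference 0.13), endothelial markers (2 of 8 tested, median 0.26) and red cell markers (2 of 7 tested, median 0.38) showed no gene past limma's threshold, nor did leukocyte markers (5 of 9 tested, median -0.54), neural markers (3 of 9 tested, median 1.01, or 0.19 with all tested probe sets of a gene averaged) or the 2 tested skeletal markers (median 0.085). Fibroblast markers summed to 25617 and 41980 on the fibronectin arrays, against 39707 and 59238 on the controls, so the groups overlapped. Of these markers 9 of 10 had a negative difference, 5 lay below the controls without overlap, 0 lay above, and 0 passed. Their median difference was -0.75, or -0.28 on the deposited scale. The background without overlap was 19.0% of tested probe sets below and 19.3% above. By limma's unadjusted p under 0.05, 4 of the 10 were lower and 0 higher, where the background in both directions was 6.47%. Of all 9519 tested probe sets 0 passed limma's threshold, so the lack of calls in a list cannot show whether a cell type differed. The part of these other cell types in the results below was not tested. In RNA from a whole culture, fewer cells of a type and less of its RNA per cell cannot be told apart.

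Myh7, the slow beta chain, was among the most abundant signals in the culture by its brighter probe set (1386993_at), and this probe set barely differed between the dishes. It measured 13.86 and 13.83 on fibronectin replicates 1 and 2, against 13.55 and 13.91 on control replicates 1 and 2. The fibronectin arrays thus lay inside the range of the controls. On each array it ranked 11th and 12th among the 15866 probe sets with fibronectin, against 24th and 9th on the controls. The difference was 0.11 (SE 0.24), and limma gave an adjusted p = 0.925 by Benjamini-Hochberg. It was -0.071 without control replicate 1.

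On the scale of the deposited intensities the same probe set looked different. It read 16241 and 20730 on the fibronectin arrays, against 8749 and 12102 on the controls, so that both fibronectin arrays lay above both controls. That is a log2 difference of 0.83, or 1.78-fold, with limma's adjusted p = 0.725 on that scale. Bright probe sets in general were higher there. Among the 100 probe sets with the highest mean signal, 96 had a positive difference of deposited intensities, the median was 0.73, and 38 exceeded Myh7. After quantile normalization the median of the same 100 was 0.077, close to the Myh7 value. Over all 9519 tested probe sets the median difference of deposited intensities was 0.057. The direction for the brighter Myh7 probe set was the same on both scales, and its size depended on the scale.

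The other Myh7 probe set (1367928_at), which was dimmer on every array, gave the largest difference of the 4. It measured 6.75 and 8.99 on fibronectin replicates 1 and 2, against 10.74 and 11.58 on control replicates 1 and 2. Both fibronectin arrays lay below both controls, and the fibronectin arrays differed from each other by 2.24. In rank this was 7713th and 1802nd of 15866 with fibronectin, against 425th and 226th on the controls. It averaged 7.87 ± 1.59 on the fibronectin arrays and 11.16 ± 0.59 on the controls (SD, n = 2 each), and the fibronectin mean was 9.77-fold lower. The difference of -3.29 (SE 0.68) had limma's Benjamini-Hochberg adjusted p = 0.528 over all tested probe sets. Of the 9519 tested probe sets 8 had a more negative difference. It was -2.17 when fibronectin replicate 1 was left out (limma's adjusted p = 0.0224), -4.41 when fibronectin replicate 2 was left out (limma's adjusted p = 0.0161) and -3.71 when control replicate 1 was left out (limma's adjusted p = 0.00971). In those fits the single array of the reduced group is assumed to vary like the other group. Without control replicate 2 the difference was -2.87, with limma's adjusted p = 0.188.

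Myh6, the fast alpha chain, was bright but far from the top of the list in its brighter probe set (1368093_at), and its arrays overlapped. It measured 10.75 and 9.48 on fibronectin replicates 1 and 2, against 10.09 and 9.62 on control replicates 1 and 2. Fibronectin replicate 1 was the highest of the 4 arrays and fibronectin replicate 2 the lowest. It ranked 425th and 1190th on the fibronectin arrays, against 718th and 1059th on the controls. It averaged 10.11 ± 0.90 on the fibronectin arrays and 9.86 ± 0.34 on the controls (SD, n = 2 each). The difference of 0.25 (SE 0.44) was smaller than the distance of 1.27 between the fibronectin arrays, with limma's adjusted p = 0.900. Its sign rested on 1 array, since it was -0.38 without fibronectin replicate 1 and 0.89 without fibronectin replicate 2. Without control replicate 2 it was 0.02.

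The dimmer Myh6 probe set (1387049_at) was weak everywhere and weakest on fibronectin. It measured 4.76 and the floor of 4.55 on fibronectin replicates 1 and 2, against 5.83 and 6.35 on control replicates 1 and 2. Both fibronectin arrays were at or next to the floor, so the size of the difference is not measured. In deposited intensities it read 28.8 and 5.85 on the fibronectin arrays, against 63.3 and 73.4 on the controls. The deposited values of fibronectin replicate 2 came in steps of 1.95, and this reading was 3 steps. The probe set was among the 6347 left out of the main test as dim. In the fit with no filter its difference was -1.44 (SE 0.27), with limma's adjusted p = 0.576.

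**Figure D1:**
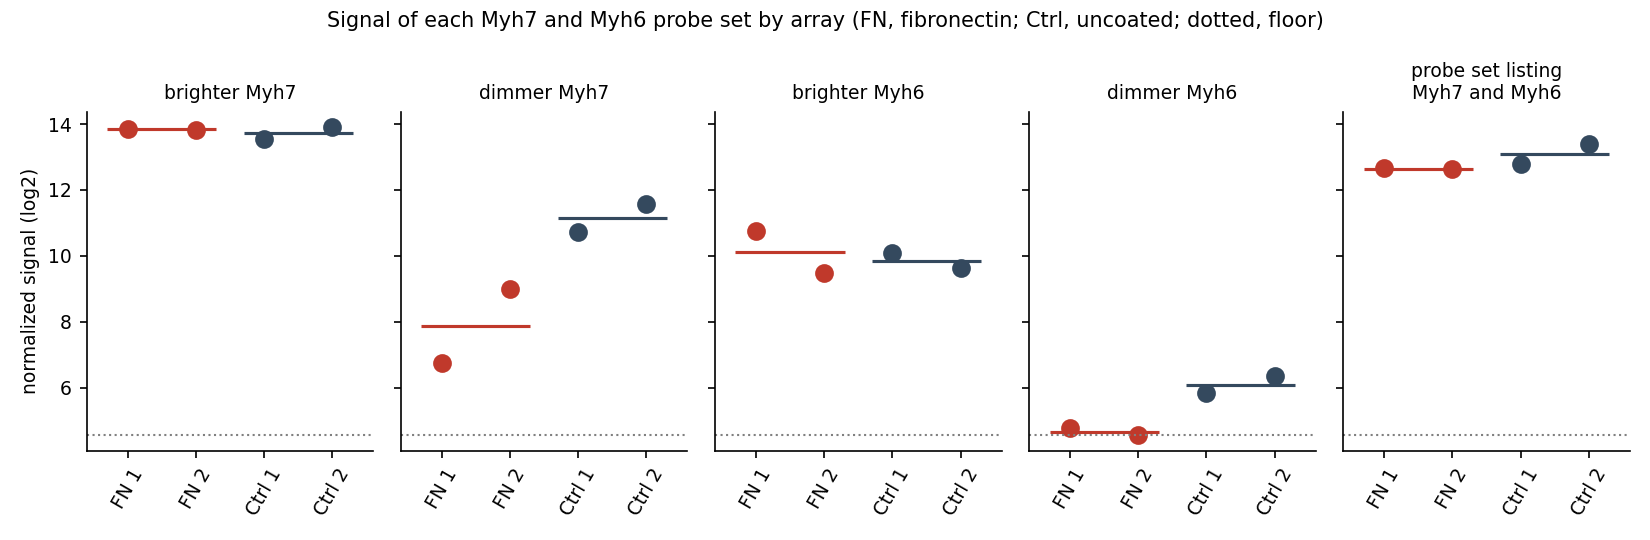
Normalized signal (log2, vertical axis) of the 4 member probe sets and of the probe set that lists both symbols, by array, with fibronectin arrays (FN) left of uncoated controls (Ctrl). Horizontal lines are group means and the dotted line is the floor of 4.55. The dimmer probe set of each gene has both fibronectin arrays below both controls, while the arrays of each brighter probe set overlap.

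Counted over the genes' 4 probe sets, 2 lay below the controls on both fibronectin arrays, 0 lay above them and 2 overlapped. Both that lay below were the dimmer probe set of their gene. Of the 3 tested members 1 lay below without overlap, where the background over all 9519 tested probe sets was 19.0% below and 19.3% above. Where the arrays also had to be separated by a mean log2 difference of 1 or more, 5.79% of tested probe sets lay below the controls and 3.42% above. With 4 probe sets in all these shares cannot show whether the members stand out. None of the 3 tested members passed limma's Benjamini-Hochberg threshold of 0.05, nor did any other probe set, so the background of calls was 0%. At an unadjusted p under 0.05 the background was 6.47%, or 616 probe sets, and the dimmer Myh7 probe set was the 1 of 3 tested members among them. The number of calls was 552 without fibronectin replicate 1, 8 without fibronectin replicate 2, 9 without control replicate 1 and 0 without control replicate 2.

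A further probe set (1398248_s_at) lists both symbols and cannot be assigned to either chain. It measured 12.67 and 12.62 on fibronectin replicates 1 and 2, against 12.79 and 13.40 on control replicates 1 and 2. Both fibronectin arrays lay below both controls, by little. The difference was -0.45 (SE 0.28), with limma's adjusted p = 0.772, and on the deposited scale it was 0.16. The dimmer Myh7 probe set was thus 3.29 lower with fibronectin on the log2 scale where the probe set read for both chains was 0.45 lower.

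The beta to alpha ratio was taken on each array as the log2 signal of a Myh7 probe set minus that of a Myh6 probe set. Because probe sets differ in how strongly they bind their target, its level is no ratio of molecules, and only its change from array to array is read. With the brighter probe set of each gene the ratio was 3.11 and 4.35 on fibronectin replicates 1 and 2, against 3.46 and 4.29 on control replicates 1 and 2. The fibronectin arrays enclosed the controls. The arrays numbered 1 had the lower ratio in both groups, and the labels do not say whether equal numbers share a preparation. It averaged 3.73 ± 0.88 on the fibronectin arrays and 3.87 ± 0.59 on the controls (SD, n = 2 each), a difference of -0.14. An exact two-sided permutation test of the 4 arrays gave p = 1, and 0.333 is the smallest that 2 arrays against 2 allow. On the deposited scale the difference was 0.48, from signal ratios of 7.69 and 35.3 on the fibronectin arrays, against 7.55 and 18.6 on the controls. It was 0.48 without fibronectin replicate 1, -0.76 without fibronectin replicate 2, -0.56 without control replicate 1 and 0.27 without control replicate 2.

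The direction of the ratio also turned with the probe sets that were paired. The brighter Myh7 over the dimmer Myh6 probe set gave 9.09 and 9.28 on the fibronectin arrays, against 7.72 and 7.56 on the controls, higher by 1.54 with fibronectin without overlap. The 9.28 is a lower bound, because the dimmer Myh6 signal was at the floor on fibronectin replicate 2. The dimmer Myh7 over the brighter Myh6 probe set gave -4.00 and -0.48 on the fibronectin arrays, against 0.64 and 1.96 on the controls, a difference of -3.54 without overlap. The dimmer probe sets of both genes gave 1.99 and 4.44 on the fibronectin arrays, against 4.91 and 5.23 on the controls. The 4.44 is likewise a lower bound, so neither the difference nor the separation of the groups is measured for this pair. The first 2 of these 3 pairs reached the exact permutation p = 0.333 and cannot go lower. The beta to alpha ratio therefore had no direction that held over the probe sets, the arrays left out and the scale.

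**Figure D2:**
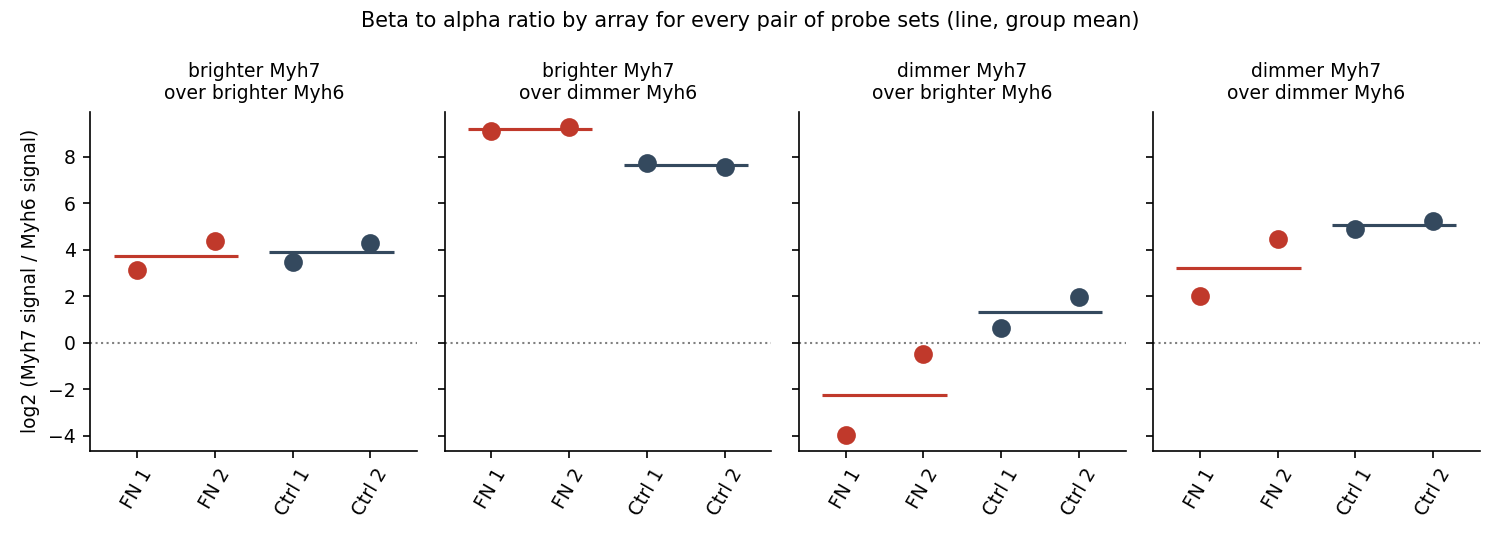
Beta to alpha ratio (log2 of Myh7 over Myh6 signal, vertical axis) by array for the 4 pairings of a Myh7 with a Myh6 probe set, fibronectin arrays (FN) left of controls (Ctrl), with group means as lines. The pairing of brighter probe sets overlaps, 1 pairing has both fibronectin arrays above the controls, and the dimmer Myh7 over brighter Myh6 pairing has them below. Points of fibronectin replicate 2 that use the dimmer Myh6 probe set are lower bounds.

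The probe sets of each gene disagreed most where the fibronectin arrays were read. The brighter Myh7 probe set exceeded the dimmer by 7.11 and 4.83 on fibronectin replicates 1 and 2, against 2.81 and 2.33 on control replicates 1 and 2, on the log2 scale. In deposited intensities that is 139.0-fold and 50.7-fold on the fibronectin arrays, against 5.03-fold and 4.73-fold on the controls. For Myh6 the distance was 5.98 and 4.93 on the fibronectin arrays, against 4.26 and 3.27 on the controls. In both genes the distance was wider on both fibronectin arrays, although the annotation lists the same sequence record for both probe sets of a gene. The Myh6 distance of 4.93 on fibronectin replicate 2 is a lower bound, since the dimmer probe set was at the floor there. In deposited intensities the Myh6 distance was 73.3-fold and 100.3-fold on the fibronectin arrays, against 18.3-fold and 8.86-fold on the controls. The Myh7 distance was widest on fibronectin replicate 1, then fibronectin replicate 2, control replicate 1 and control replicate 2. The 3′ to 5′ ratios of Gapdh and beta-actin given above had this order too, and that of hexokinase did not. For Myh6 the order of the fibronectin arrays turned with the scale. The part of RNA quality in these distances was not tested.

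**Figure D3:**
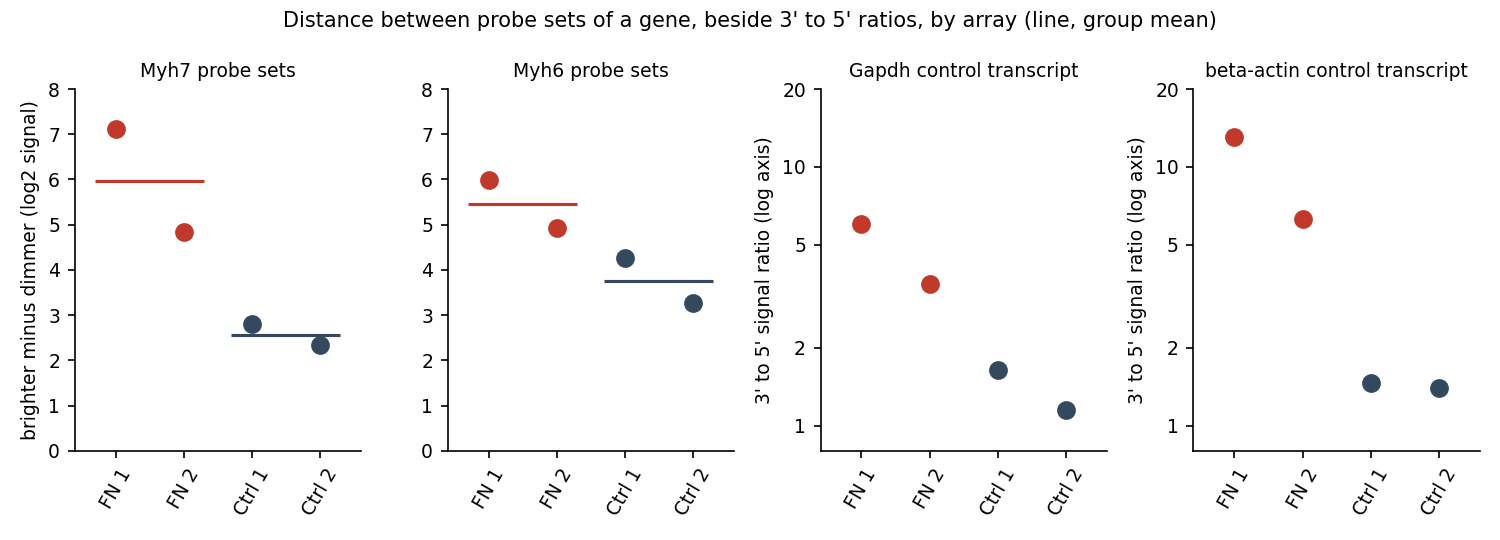
Distance between the brighter and the dimmer probe set of Myh7 and of Myh6 (log2 signal, left panels, lines are group means), and the 3′ to 5′ signal ratio of the Gapdh and beta-actin control transcripts (right panels, log axis), by array with fibronectin (FN) left of controls (Ctrl). Myh7, at 7.11, 4.83, 2.81 and 2.33, falls in the order of both control transcripts, while the Myh6 point of 4.93 on fibronectin replicate 2 is a lower bound set by the floor.

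Other genes were set beside Myh7 and Myh6 in the same way. Of the 850 genes with at least 2 tested probe sets, Myh7 had the fourth largest spread between the differences of its probe sets, at 3.40 against a median of 0.70. The larger ones were those of Myo1c, Cct6a and Pfkm, and in each of these the dimmer probe set was also the one that was lower with fibronectin. Next after Myh7 came Stat2 and Tmem259, with spreads of 3.36 and 3.25, where the dimmer probe set was the higher one. Over the 850 genes the dimmest probe set had the lower difference in 507, or 59.6%. The distance between the dimmest and the brightest probe set was wider with fibronectin, without overlap of the arrays, in 235 of the 850 genes, or 27.6%, and narrower in 129, or 15.2%. The order of arrays seen in Myh7 was shared by 94 genes, or 11.1%. Among the 1868 genes with at least 2 probe sets of any brightness, to which Myh6 belongs, the distance was wider in 368, or 19.7%, and narrower in 343, or 18.4%, and 6.48% shared the order. Over the 850 genes the median difference with fibronectin was -0.33 for the dimmest and -0.13 for the brightest probe set. Brightness differed more between the Myh7 probe sets than in most genes, by 4.27 in mean signal over the 4 arrays. That mean includes the fibronectin arrays, and on control replicates 1 and 2 the distance was 2.81 and 2.33. In the 12 genes where mean brightness differed at least as much, Myh7 included, the dimmest probe set was the lower one in 9 and the median spread was 1.23. A probe set that is lower with fibronectin also has a lower mean, so these genes are no independent comparison. For Myh6 the spread was 1.69, limited by the floor, and 11.7% of the 1868 genes had a spread that large, where the median was 0.72.

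**Figure D4:**
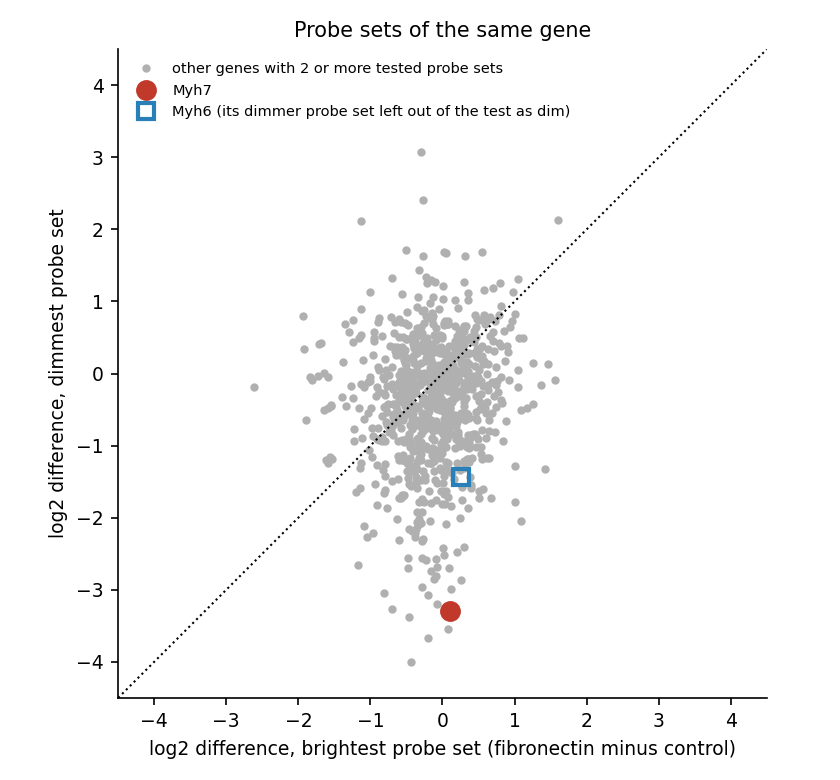
Log2 difference between fibronectin and control arrays of the brightest probe set (horizontal axis) and the dimmest probe set (vertical axis) of each of the 850 genes with at least 2 tested probe sets, with Myh6 added. On the dotted line probe sets would be equal. Myh7 lies at 0.11 and -3.29, near the lower end of the cloud, and Myh6 at 0.25 and -1.44.

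Thick filament proteins that work with the heavy chains had a mixed pattern in which 0 of 10 tested genes passed limma's test in either direction. Their median difference was 0.19, or 0.12 with all tested probe sets of a gene averaged, beside 0.02 for all 7101 tested genes, with 6 positive and 4 negative. Mybpc3, the cardiac myosin-binding protein C that tethers the heavy chain, measured 11.69 and 11.71 on the fibronectin arrays, against 11.13 and 11.39 on the controls, the largest positive difference of the list at 0.44 (SE 0.26), with limma's adjusted p = 0.771. Myl3, the essential light chain of ventricular myosin, measured 13.15 and 13.22 on the fibronectin arrays, against 12.79 and 12.75 on the controls. Myl4, the essential light chain of atrial and fetal myosin, measured 10.52 and 10.32 on the fibronectin arrays, against 9.85 and 10.18 on the controls. Each of these 3 genes had both fibronectin arrays above both controls. In all, 5 of the 10 lay above and 2 below without overlap, where the background was 19.3% above and 19.0% below. Myom1 and Myom2, which cross-link the filaments in the M band, likewise did not overlap and differed by 0.32 (SE 0.29) and 0.27 (SE 0.31). Myl2, the regulatory light chain of the ventricle, overlapped at 13.77 and 14.28 on the fibronectin arrays, against 14.03 and 13.79 on the controls, and its dimmer probe set differed by -0.50. Ttn, the giant spring that spans from the Z disc to the M band, was at the opposite end with 10.08 and 10.93 on the fibronectin arrays, against 10.95 and 11.91 on the controls. Its difference was -0.92 (SE 0.41), with limma's adjusted p = 0.762. Mybphl, a relative of Mybpc3, also lay below without overlap, at -0.38 (SE 0.58), and Mylk3, the kinase of the ventricular regulatory light chain, overlapped.

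Other myosin heavy chains showed no large difference where they could be tested. Of 9 on the array under a single symbol, 4 passed the filter on dim probe sets, 0 passed limma's test, and their median was -0.15, or 0.04 on the deposited scale. Myh9 and Myh10, heavy chains of nonmuscle myosin, differed by -0.29 (SE 0.30) and 0.04 (SE 0.34), the second being the only positive value. Myh11, the smooth muscle chain, measured 7.97 and 7.70 on the fibronectin arrays, against 8.14 and 8.16 on the controls, and did not overlap. Its difference was -0.31 (SE 0.36), with limma's adjusted p = 0.844. Myh11 was the 1 of these 4 tested genes without overlap, and the background below was 19.0% of tested probe sets. The 5 probe sets that the annotation names Myh1, an adult skeletal muscle chain, were bright, as given above, and differed by -0.03 to 0.12. Because that name was not tested, these values are tied to the probe sets alone. Myh2, Myh3, Myh4, Myh8 and Myh13, chains of skeletal and specialised muscle, were left out as dim. Myh3, the embryonic chain, measured 6.28 and 4.71 on the fibronectin arrays and was at the floor on both controls. Myh13, the chain of eye muscles, reached 7.18 on fibronectin replicate 2 and was at the floor on the other 3 arrays.

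Of the factors that fold and turn over myosin, 5 of 9 were on the array and tested, and 0 passed limma's test. Their median difference was 0.06. Trim54, a muscle ring-finger protein of the sarcomere and microtubules, measured 9.39 and 9.30 on the fibronectin arrays, against 8.85 and 8.16 on the controls. Both fibronectin arrays lay above both controls, by 0.84 (SE 0.36), with limma's adjusted p = 0.762. Trim54 was the 1 gene of these 5 without overlap, and the background above was 19.3% of tested probe sets. Unc45b, the dedicated myosin chaperone of striated muscle, overlapped at 9.96 and 10.13 on the fibronectin arrays, against 10.02 and 9.59 on the controls. Hsp90ab1, its heat shock partner, had the lowest value of the list at -0.61 (SE 0.42) and overlapped, as did Trim63, a ubiquitin ligase that marks myosin heavy chain for breakdown, at -0.03 (SE 0.35).

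Among regulators of the heavy chain genes, 16 of the 21 on the array were tested, 8 were positive and 8 negative, and 0 passed limma's test. The median difference was -0.061, or -0.14 with all tested probe sets of a gene averaged. Thra, the main thyroid hormone receptor of the heart, measured 7.81 and 8.60 on the fibronectin arrays, against 8.94 and 8.07 on the controls, with overlap. Thrb, the other thyroid hormone receptor, was dim, with 5.54 and 6.87 on the fibronectin arrays and the floor on both controls in its brighter probe set. Dio2, which activates thyroid hormone, was at the floor on all 4 arrays. Tbx5, a cardiac T-box factor, had the largest positive difference at 0.69 (SE 0.60). Mef2d, a MADS-box factor of muscle genes, had the most negative at -1.36 (SE 0.75), with 7.74 and 5.40 on the fibronectin arrays, against 8.27 and 7.58 on the controls. Its other probe set differed by 0.68 (SE 0.56). Nkx2-5, the cardiac homeobox factor, and Parp1, which binds DNA and has been linked to Myh7 transcription, were the 2 without overlap, both below the controls, at -0.36 (SE 0.30) and -0.39 (SE 0.29), and the background below without overlap was 19.0% of tested probe sets. Tead1, Gata4 and Srf, factors that act on muscle-specific promoters, overlapped in the brightest probe set.

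Myh7 is usually read together with other genes of the fetal programme, of which 6 genes were tested. Their median difference was 0.41, beside 0.02 for all 7101 tested genes, and 0 passed limma's threshold. On the deposited scale the median of the list was 0.84. There it was 0.73 for the 100 brightest probe sets and 0.057 for all 9519 tested probe sets. The 100 brightest start at a mean signal of 12.63, which none of the 6 genes reached, so they are not matched in brightness. Nppa, which encodes atrial natriuretic peptide, measured 13.44 and 13.16 on the fibronectin arrays, against 12.48 and 11.17 on the controls. Nppb, for B-type natriuretic peptide, measured 11.11 and 12.32 on the fibronectin arrays, against 10.51 and 10.59 on the controls. Acta1, skeletal alpha-actin, measured 11.80 and 12.15 on the fibronectin arrays, against 10.87 and 11.45 on the controls. In these 3 both fibronectin arrays were above both controls, with limma's adjusted p = 0.684, 0.718 and 0.726. The background without overlap was 19.3% of tested probe sets above and 19.0% below. The brighter Myh7 probe set was not separated on the normalized scale and was on the deposited scale. Atp2a2, the calcium pump that is usually lowered in this programme, measured 12.30 and 11.94 on the fibronectin arrays, against 13.43 and 12.68 on the controls, below without overlap, with limma's adjusted p = 0.718. The difference of Atp2a2 was -0.94 (SE 0.32), or -0.33 on the deposited scale. Its other tested probe sets differed by -0.35 and -1.53. Actc1, cardiac alpha-actin, was not analysed here. The slow and cardiac troponin I genes Tnni1 and Tnni3 differed by 0.00 (SE 0.24) and -0.14 (SE 0.29).

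**Figure D5:**
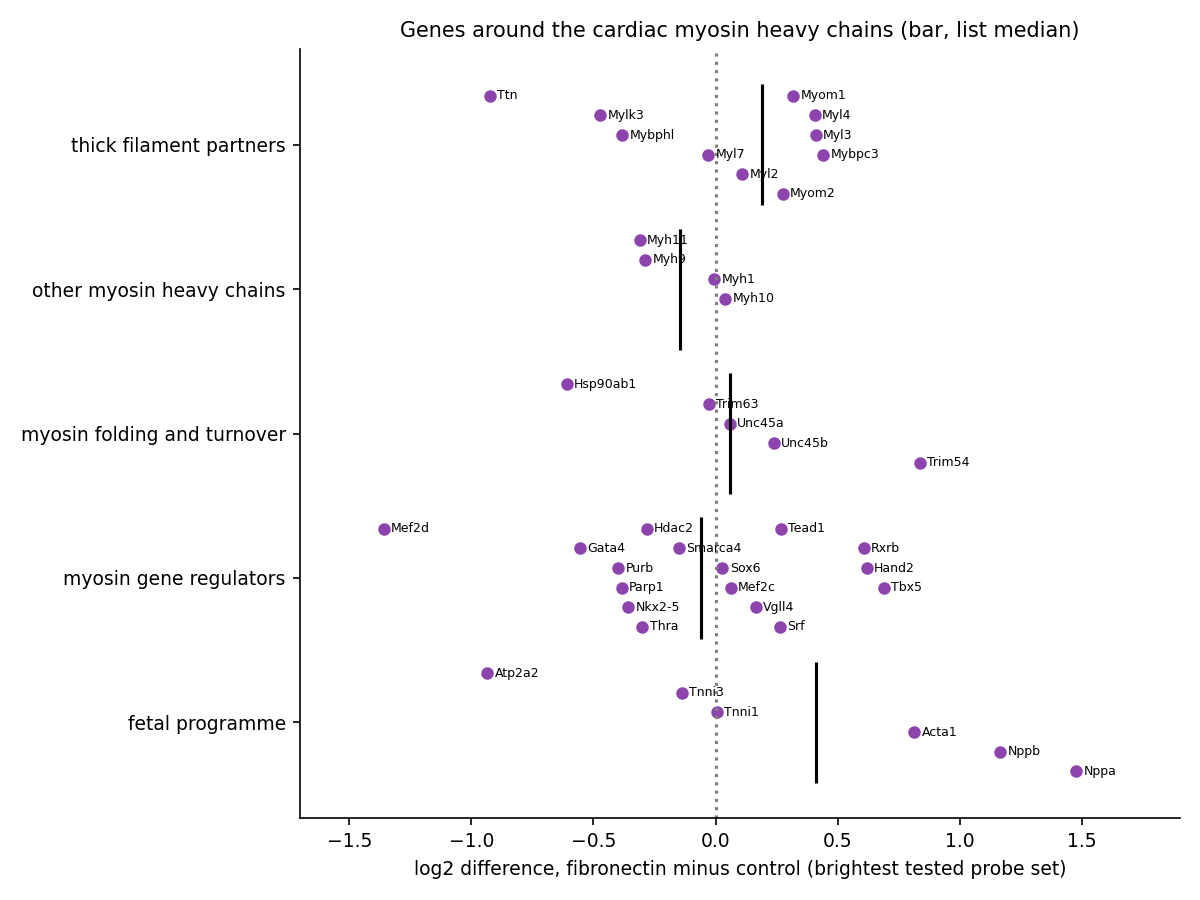
Log2 difference between fibronectin and control arrays (horizontal axis) of each tested gene of the 5 lists around the cardiac heavy chains, by its brightest probe set, with list medians as vertical bars. Nppa at 1.48 and Mef2d at -1.36 are the ends of the range, and 0 genes passed limma's threshold.

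Genes with the profile most like each tested member were found by the root mean square distance between log2 signals centred on their mean over the 4 arrays. For the brighter Myh7 probe set these were Stk11ip, Aprt and Ap3s1, at distances of 0.0166, 0.0196 and 0.0309. Such nearness is common for a profile this flat, since 4771 of 7099 genes lay within 0.5. For the brighter Myh6 probe set they were Ung, Cd2bp2 and C9h2orf49, at distances of 0.0327, 0.0482 and 0.0637, with 2308 genes within 0.5. The dimmer Myh7 probe set had few neighbours. Gnb1, a beta subunit of G proteins, came nearest at 0.41, the only gene within 0.5, with 7.06 and 9.55 on the fibronectin arrays, against 10.19 and 11.64 on the controls. Vcl, the focal adhesion protein vinculin, followed at 0.73 with 8.89 and 11.40 on the fibronectin arrays, against 11.63 and 12.35 on the controls. The protease-like gene Prss35 was next at 0.80. The likeness is of single probe sets, since the dimmest probe set of Gnb1 differed by -0.19 and that of Vcl by -0.047, against -2.61 and -1.84 in the brightest. All 3 were lowest on fibronectin replicate 1, as the dimmer Myh7 probe set was, which a choice by nearest profile makes likely. The median distance of all 7099 genes from it was 1.91.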

How the data were processed

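The authors deposited linear intensities, 1 for each probe set on each array. The sources used here do not give the method that turned scans into intensities. From them, 15875 probe sets were quantile normalized, raised to a floor at the 20th percentile (23.4, or 4.55 in log2) and converted to log2. Trimmed means of the arrays ran from 175.0 to 247.3 before this step. The 9 control probe sets were dropped, then the dimmest 40% of what remained by mean signal, leaving 9519. The groups were tested in limma 3.58.1 (lmFit, then eBayes with a trend in mean signal; R 4.3.3), two-sided, with p-values adjusted by Benjamini-Hochberg over all tested probe sets at 0.05. Values beside ± are SDs over 2 arrays, and the number of arrays limits the precision. The test was tried on simulated data. Names came from the platform annotation, and both members matched the GRCr8 gene table.

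The members and the 5 gene lists and 9 marker lists were chosen with earlier results of these data known. The rule for naming took all member probe sets, the largest difference in each direction of each gene list, any gene past the threshold, Nppa, Nppb, Acta1, Actc1 and Atp2a2, and the 3 nearest profiles of each tested member. Other genes were chosen after their values were seen. A gene was represented by its brightest tested probe set. Alternatives were the deposited scale, a shift to the same median, other filters, floors and variance models, the replicate number as a block, each array left out, and other probe sets.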

Additional observations from a re-analysis of the deposited data

How the results depend on the processing

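The dimmer Myh7 and dimmer Myh6 probe sets stayed negative under all 13 alternatives each, from -4.41 to -2.17 and from -2.49 to -0.86. Most of these alternatives could not have turned the sign. Another filter, another variance model or the replicate block leaves such a difference unchanged. With both fibronectin arrays below both controls, leaving out an array cannot turn it either. The brighter Myh7 difference reversed to -0.071 without control replicate 1 (leave-out range -0.071 to 0.29) and was 0.11 to 0.83 under other settings. The brighter Myh6 difference reversed to -0.38 without fibronectin replicate 1 (leave-out range -0.38 to 0.89). The dimmer Myh7 range with 1 array left out was -4.41 to -2.17. The beta to alpha difference reversed to 0.48 on the deposited scale and after a shift to the same median, to 1.54 with the brighter Myh7 over the dimmer Myh6 probe set (limited by the floor), and ran from -0.76 to 0.48 with 1 array left out. The difference with fibronectin of the dimmer Myh6 probe set minus that of the brighter was -1.69 as reported and -2.75 with no floor. Leaving out the floor let the reading of 3 steps on fibronectin replicate 2 count in full.

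No probe set passed in the reported fit, against 0 to 552 with 1 array left out (552 without fibronectin replicate 1, 8 without fibronectin replicate 2, 9 without control replicate 1). Differences of at least 1 without overlap numbered 877, against 1586 with no filter, 338 with the dimmest 60% left out, 355 with an offset of 50, and 932 to 2379 with 1 array left out (2379 without fibronectin replicate 1, 1342 without control replicate 1). With the replicate block 234 passed, among them the dimmer Myh7 probe set at -3.29 with limma's adjusted p = 1.5e-09. With the block, 4 arrays leave very little spread to measure for each probe set. That p-value therefore rests largely on variance pooled over probe sets. Deviations of equally numbered arrays correlated at 0.271, and with 2 pairs nothing shows that the numbers pair the arrays. The median of the other heavy chains reversed to 0.040 on the deposited scale. Fewer or more probe sets enter under another filter, and a group of 1 array is more easily separated without overlap. Beyond this the causes of these changes were not tested.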
